A study of Homo sapiens with 2 samples.

Results

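The genes described here encode the machinery that carries newly made proteins across the membrane of the endoplasmic reticulum (ER) and attaches N-linked glycans to them. They were taken by gene symbol, and 37 of the 50229 symbols in the deposited table belong to the set, each with a single row. The samples were 2 RNA sequencing libraries from ARP1, a cell line of multiple myeloma, which is a cancer of antibody-secreting plasma cells. The siVCP-labelled library is described in the labels as a VCP knockdown and the siNC-labelled library as its control, with 1 library in each group and no other genotype, agent, dose or time given. VCP codes for p97, an ATPase that pulls ubiquitinated proteins out of membranes and complexes, including misfolded proteins of the ER, and passes them to the proteasome. With 1 library per group no test was possible, and the differences below are between these libraries, with no replicate error.

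A secreted or membrane protein usually starts with a hydrophobic signal sequence. The signal recognition particle (SRP) binds it as it leaves the ribosome and docks at the SRP receptor, and the ribosome then feeds the chain through the Sec61 channel, helped by the TRAP complex and TRAM proteins. On the inner side the signal peptidase removes the signal sequence, and oligosaccharyltransferase (OST) transfers a preassembled glycan to asparagine residues. Plasma cells secrete immunoglobulin, a glycoprotein, and are rich in this machinery.

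Deposited counts summed to 68872657 in the siVCP-labelled library and 72566092 in the siNC-labelled library. VCP itself was at an FPKM (fragments per kilobase of gene, scaled to library size) of 65.9 in the siVCP-labelled library and 47.7 in the siNC-labelled library. The targeted transcript was thus 1.38-fold higher [1.33 to 1.43] where the label says knockdown, so each direction below is between labels, and no loss of VCP was seen. Brackets hold 95% intervals that cover counting error only, at 4 counts per fragment as inferred from the table. All 9 plasma cell markers were measured, at an FPKM from 8.53 to 712, and they did not share a direction. XBP1 was at 434 and 437, siVCP first, and MZB1, IRF4 and TNFRSF17 also had log2 ratios between -0.01 and 0.06. JCHAIN (485 and 712), PRDM1 (46.6 and 69.8) and CD38 (15.3 and 21.6) were lower in the siVCP-labelled library, and SLAMF7 (13.2 and 8.53) and SDC1 (257 and 223) were higher. The highest marker of another lineage was PPARG, of the adipocyte list, at 7.64 and 8.84, with the other 4 adipocyte markers at 0 in both libraries. Of the B cell markers, CD79A was at 2.36 and 4.94, CIITA at 3.73 and 4.82, PAX5 at 1.44 and 1.62, and MS4A1 at 0.0139 and 0.0177. Each of the T cell, myeloid, stromal, epithelial and erythroid lists summed to at most 2.77, and their part in the results was not tested. In bulk RNA, fewer cells of a kind and less RNA per cell cannot be told apart.

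The machinery was abundant and differed little between the libraries. An FPKM of 1 in either library was reached by 35 of the 37 genes, all but SEC61A2 and TUSC3. Among all 11645 genes that reached it, 18 of the 37 ranked in the top 10% in each library. Summed over the set, FPKM was 1927 in the siVCP-labelled library and 1807 in the siNC-labelled library, which was 0.623% and 0.573% of all FPKM. The log2 ratio used below is that of FPKM + 1, the siVCP-labelled library over the siNC-labelled library, which understates differences of low genes. Its median over the 35 genes was -0.08, against -0.02 over all measured genes, and 37.1% of the 35 lay above 0, against 47.2%. By this ratio 2 of the 35, MAGT1 and OST4, were at least 1.5-fold higher in the siVCP-labelled library, a share of 5.71% against 4.53% of all measured genes. None was at least 1.5-fold lower, against 5.87% of all measured genes. Without MAGT1 and OST4 the summed FPKM was 1593 and 1605 over 33 genes. The larger sum in the siVCP-labelled library came chiefly from OST4, at 315 and 195. MAGT1, at 18.6 and 6.78, added less to it than SEC61A1, at 176 and 143.

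Both genes that passed 1.5-fold encode OST subunits, and their promoters are shown because no other member passed it. They are RefSeq sequences of GRCh38.p14, from 250 bases before to 50 bases after a transcript start, 5′ to 3′ on the gene's strand. Capitals mark CCAAT, read on either strand. MAGT1 (chrX:77895386-77895685, minus strand; the downstream of its 2 starts in the table) holds it 4 times and OST4 (chr2:27071605-27071904, minus strand) not at all.
MAGT1: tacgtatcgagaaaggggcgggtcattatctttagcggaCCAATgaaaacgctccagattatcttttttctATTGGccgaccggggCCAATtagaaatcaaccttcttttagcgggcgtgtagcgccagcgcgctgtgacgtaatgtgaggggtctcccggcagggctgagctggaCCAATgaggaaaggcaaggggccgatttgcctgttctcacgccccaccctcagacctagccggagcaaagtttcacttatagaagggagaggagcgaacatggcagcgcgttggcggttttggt
OST4: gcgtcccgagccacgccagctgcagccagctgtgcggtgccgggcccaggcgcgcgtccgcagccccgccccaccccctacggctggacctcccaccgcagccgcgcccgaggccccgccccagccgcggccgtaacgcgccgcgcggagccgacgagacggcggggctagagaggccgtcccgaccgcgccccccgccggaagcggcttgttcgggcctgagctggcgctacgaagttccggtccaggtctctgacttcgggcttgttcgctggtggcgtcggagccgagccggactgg

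Genes of ER proteins often answer ER stress through letters bound by XBP1 or ATF6 in their promoters. A search on both strands covered the 39 promoters of the 31 members that RefSeq's table holds. The ER stress element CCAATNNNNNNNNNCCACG and its second form, ERSE-II (ATTGG, any base, CCACG), were in none of them, and in 0.0769% and 0.0541% of all 35116 promoters. The letters TGACGTGG, an XBP1 site of the unfolded protein response, were found in SSR3, SEC62, SRP19 and SSR4. That is 12.9% of the 31 members, some with several promoters, against 1.20% of the 8135 measured genes with a promoter in the table. The shorter ACGTG, which lies within TGACGTGG, was in 17 of 31 members, against 33.5% of measured genes, and CCAAT was in 16 of 31, against 43.7%. Each window of 30 bases below carries the TGACGTGG match in capitals, which in these genes reads in the reverse direction. A match is a description of letters and no measured binding.
SSR3 (chr3:156554148-156554177, minus strand): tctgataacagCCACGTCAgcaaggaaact
SEC62 (chr3:169966779-169966808, plus strand): ccctcctcgctCCACGTCAgagggaaccgg
SRP19 (chr5:112861164-112861193, plus strand): aagtcttcatgCCACGTCAgagactagaga
SSR4 (chrX:153794528-153794557, plus strand): tcagggaggggCCACGTCAgtgctgccaga

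The members with TGACGTGG did not share a direction. SSR4 had a log2 ratio of 0.09, SRP19 of -0.05, SSR3 of -0.14 and SEC62 of -0.34. The 17 members with ACGTG had a median log2 ratio of -0.06, and the other members with a promoter -0.05. XBP1, which encodes the factor itself, had a log2 ratio of -0.01, though a gene-level value does not tell its spliced from its unspliced form.

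**Figure D1:**
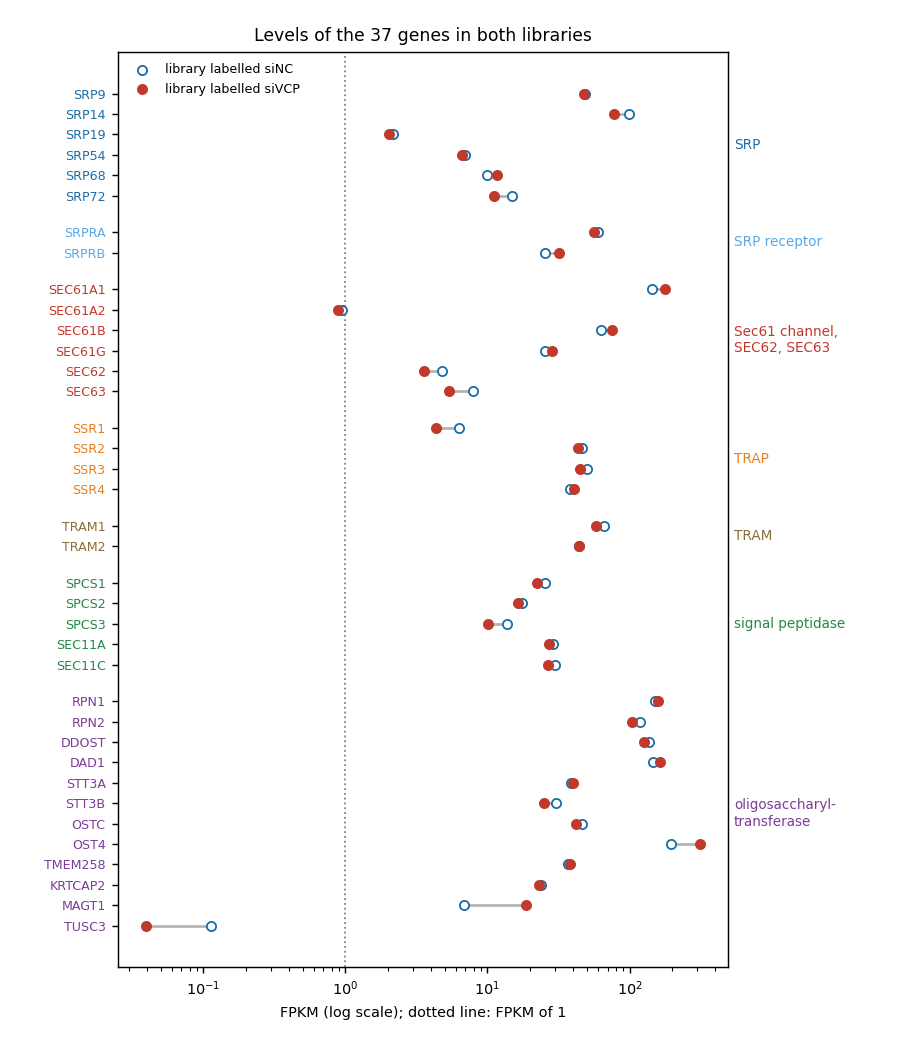
FPKM of each of the 37 genes (log scale) in the siNC-labelled library (open circles) and the siVCP-labelled library (filled circles), grouped by complex. Most pairs of points nearly coincide, MAGT1 moves from 6.78 to 18.6 and OST4 from 195 to 315, and SEC61A2 and TUSC3 lie under an FPKM of 1.

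The SRP reads the signal sequence and pauses the ribosome, and its protein subunits are encoded by 6 of the genes. SRP54, which binds the signal sequence through a methionine-rich domain, was at an FPKM of 6.67 in the siVCP-labelled library and 7.00 in the siNC-labelled library. SRP19, which helps SRP54 assemble on the SRP RNA, was at 2.03 and 2.15, in that order. The interval of the fold included 1 for both. REEP5 overlaps SRP19 on the other strand, with counts equal to 534% and 462% of those of SRP19, so reads may be shared between them. SRP9 and SRP14 form the pair that slows translation. SRP9 was at 47.7 and 48.6 and its fold could not be told from 1. SRP14 was at 77.7 and 98.4, 1.27-fold lower [1.21 to 1.33] in the siVCP-labelled library. SRP68 and SRP72 form the other pair, and they moved apart. SRP68 was at 11.7 and 9.91, 1.18-fold higher [1.10 to 1.26]. SRP72 was at 11.0 and 15.0, 1.36-fold lower [1.27 to 1.46]. The summed FPKM of the 6 genes was 157 against 181.

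The SRP receptor genes also went in opposite directions. SRPRA encodes the subunit that docks the SRP, and it was at 56.0 in the siVCP-labelled library and 60.4 in the siNC-labelled library, 1.08-fold lower [1.04 to 1.12]. SRPRB encodes the membrane anchor of the receptor, and it was at 31.9 and 25.5, 1.252-fold higher [1.18 to 1.32]. SRPRB had the third highest log2 ratio of the set, 0.31.

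The 3 measured subunits of the Sec61 channel were each higher in the siVCP-labelled library, while its partners SEC62 and SEC63 were each lower. SEC61A1, which encodes the channel itself, was at an FPKM of 176 in the siVCP-labelled library and 143 in the siNC-labelled library, 1.23-fold higher [1.21 to 1.26]. SEC61B, a small subunit, was at 75.2 and 63.1, 1.19-fold higher [1.12 to 1.27]. SEC61G, the other small subunit, was at 28.6 and 25.2, 1.13-fold higher [1.04 to 1.24]. SEC62 and SEC63 encode membrane proteins that help posttranslational import, and SEC63 recruits the chaperone BiP through its J domain. SEC62 was at 3.56 and 4.76, 1.34-fold lower [1.20 to 1.49]. SEC63 was at 5.38 and 7.87, 1.46-fold lower [1.35 to 1.59], and its log2 ratio of -0.47 was the lowest of the set. The FPKM of SEC61A1 was thus many times that of its import partners in both libraries. SEC61A1 (ENSG00000058262, chromosome 3, 128051641 to 128071683, plus strand) overlaps RUVBL1 on the other strand. RUVBL1 was at 29.8 and 18.5, with counts equal to 25.5% and 19.6% of those of SEC61A1. No source used here states the strand setting, so reads of the overlap cannot be assigned, and the share of RUVBL1 in the SEC61A1 difference was not tested.

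The TRAP complex sits beside the channel and helps certain signal sequences open it. SSR2 was at an FPKM of 43.7 in the siVCP-labelled library and 46.1 in the siNC-labelled library, SSR3 at 45.1 and 50.0, and SSR4 at 40.5 and 37.8. These 3 differed by at most 1.11-fold. IDH3G overlaps SSR4 on the other strand, with counts equal to 44.7% and 44.6% of those of SSR4, so reads may be shared there too. SSR1 was at 4.33 and 6.28, 1.45-fold lower [1.34 to 1.57]. SSR1, which encodes the alpha subunit, stood well under the other subunits in both libraries. It has the longest transcript of the measured members, 9669 bases, and overlaps a row named AL139095 on its own strand. That row was at 22.3 and 21.6, with counts equal to 33.2% and 22.1% of those of SSR1, so reads may be shared between them. TRAM1 and TRAM2 encode membrane proteins that contact the nascent chain at the channel. TRAM1 was at 58.5 and 66.5, 1.14-fold lower [1.09 to 1.18], and TRAM2 at 44.1 and 43.8, with a fold that could not be told from 1.

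All 5 signal peptidase genes had a log2 ratio under 0, as did 6153 of all 11645 measured genes. The interval of the fold lay below 1 for 4 of the 5, against 32% of all measured genes. For SEC11A this depends on the scaling, as its log2 ratio of -0.08 was -0.02 by CPM from the counts. SEC11A and SEC11C encode the alternative catalytic subunits. SEC11A was at an FPKM of 27.1 in the siVCP-labelled library and 28.8 in the siNC-labelled library, 1.06-fold lower [1.01 to 1.12]. SEC11C was at 26.7 and 29.9, 1.12-fold lower [1.06 to 1.18]. Of the accessory subunits, SPCS1 was at 22.5 and 25.3, 1.13-fold lower [1.07 to 1.19]. GLT8D1 overlaps SPCS1 on the other strand and was at 7.98 and 11.0, with counts equal to 26.3% and 32.2% of those of SPCS1. The share of GLT8D1 in the SPCS1 difference was not tested. SPCS3, whose counterpart in budding yeast is needed for cleavage, was at 10.1 and 13.8, 1.37-fold lower [1.28 to 1.47], the largest difference of this enzyme. SPCS2 was at 16.4 and 17.4, with an interval that included 1. The rows named as pseudogene copies of SPCS2, chiefly SPCS2P4, had counts of 1951 and 1140, equal to 48.3% and 25.2% of those of SPCS2. With these reads added, the log2 ratio of SPCS2 turned from -0.08 to 0.15, so its direction, and with it the count of 5, is uncertain.

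OST exists as assemblies built around the catalytic subunit STT3A, which glycosylates chains as they pass the channel, or STT3B, which acts on sites that STT3A skipped. The shared subunits include 4 of the 5 genes with the highest FPKM in the siNC-labelled library. RPN1 and RPN2 encode the ribophorins, which were found with ER-bound ribosomes, and DDOST and DAD1 are core subunits beside the catalytic one. RPN1 was at an FPKM of 158 in the siVCP-labelled library and 151 in the siNC-labelled library, DAD1 at 163 and 146, and DDOST at 127 and 136. RPN2 was at 104 and 119, 1.15-fold lower [1.11 to 1.19], and TMEM258 at 38.1 and 37.1. DAD1 was 1.12-fold higher [1.06 to 1.18] and RPN1 1.05-fold higher [1.02 to 1.08]. DDOST was 1.07-fold lower [1.04 to 1.11], and the fold of TMEM258 could not be told from 1.

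OST4 stood apart among the shared subunits. It encodes a very small membrane subunit that stabilises the complex. OST4 (ENSG00000228474, chromosome 2, 27070472 to 27071654, minus strand) was at an FPKM of 315 in the siVCP-labelled library and 195 in the siNC-labelled library. It was 1.62-fold higher [1.54 to 1.70], with a log2 ratio of 0.69, from counts of 15582 and 10168. It was the most abundant member by FPKM in both libraries. AGBL5 overlaps it on the other strand and was at 16.0 and 16.9, with counts equal to 44.7% and 76.3% of those of OST4. How reads of the overlap were assigned, and the share of AGBL5 in the OST4 difference, were not tested.

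The subunits specific to the STT3A assembly differed little, and those of the STT3B assembly went opposite ways. STT3A was at 39.9 and 38.8, with a fold that could not be told from 1. Its companions OSTC and KRTCAP2 link this assembly to the channel. OSTC was at 41.7 and 46.2, 1.11-fold lower [1.03 to 1.19], with a log2 ratio of -0.14. KRTCAP2 was at 23.2 and 24.0, a log2 ratio of -0.05, and its interval of the fold included 1. STT3B was at 25.1 and 30.3, 1.21-fold lower [1.15 to 1.27]. MAGT1 encodes the oxidoreductase subunit of the STT3B assembly, which helps it reach sites near cysteines, and inherited loss of MAGT1 causes an immunodeficiency with glycosylation defects. MAGT1 (ENSG00000102158, chromosome X, 77825747 to 77895593, minus strand) was at 18.6 in the siVCP-labelled library and 6.78 in the siNC-labelled library. It was 2.74-fold higher [2.52 to 2.97], with a log2 ratio of 1.33, from counts of 8395 and 3238. The MAGT1 row overlapped no other row with a count, and no pseudogene row carries its name. TUSC3, which encodes the alternative to MAGT1, was at 0.0395 and 0.113 and rested on counts of 18 and 53. Its interval of the fold included 1.

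**Figure D2:**
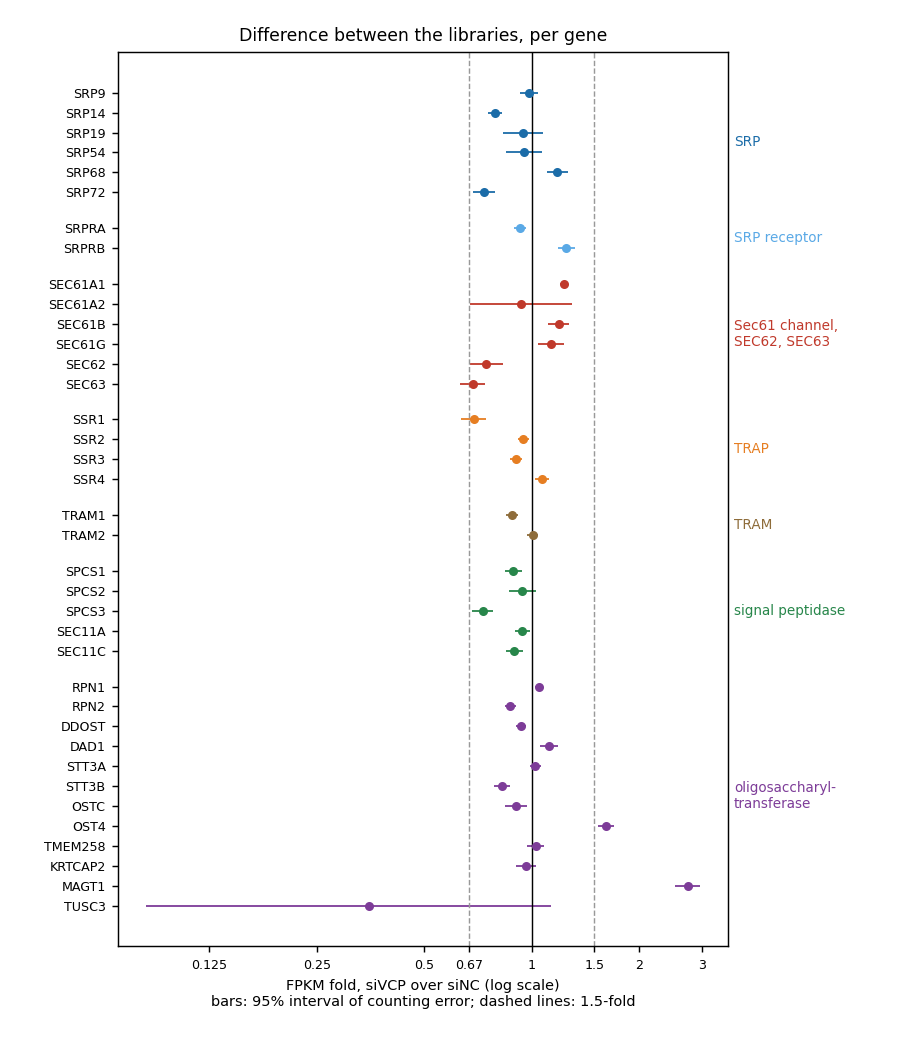
FPKM fold of each of the 37 genes, the siVCP-labelled library over the siNC-labelled library (log scale), with 95% intervals of counting error. MAGT1 at 2.74 and OST4 at 1.62 lie beyond the dashed 1.5-fold line, SEC61A1, SEC61B and SEC61G lie between 1.13 and 1.23, and SEC63 at 0.684 and SSR1 at 0.689 lie lowest among the measured genes.

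For many of these genes the interval of counting error excluded 1. For 10 of the 35 measured members the interval of the fold lay above 1, and for 28.5% of all measured genes. For 17 of them it lay below 1, against 32% of all measured genes, and for 8 it included 1. Less abundant genes have wider intervals, and the spread between cultures is not in them, so these counts give no sign that a difference would recur.

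Where alternative subunits exist, ARP1 used some pairs side by side and others almost exclusively. SEC61A1 made up 99.5% of the summed FPKM of SEC61A1 and SEC61A2 in the siVCP-labelled library and 99.3% in the siNC-labelled library. SEC61A2 was at 0.892 and 0.952, and it overlaps NUDT5 on the other strand, at 17.3 and 15.6. MAGT1 made up 99.8% and 98.4% of MAGT1 and TUSC3. By FPKM, SEC11A and SEC11C were near parity, with SEC11A at 50.4% and 49.1%, though such shares depend on the gene length used, as given below. STT3A made up 61.4% and 56.2% of the STT3 pair, so that its ratio to STT3B was 1.59 and 1.28. TRAM1 made up 57.0% and 60.3% of the TRAM pair. The summed FPKM of a pair was 1.23-fold higher in the siVCP-labelled library for SEC61A and 2.70-fold higher for MAGT1 with TUSC3. For STT3, SEC11 and TRAM the fold of the sum was 0.939, 0.918 and 0.930.

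The order of the levels depended on the gene length used. The length that the deposited counts and FPKM imply was 1.20 times (median over 10010 genes) the length of all annotated exons of a gene merged. For genes with many partial transcripts the merged length exceeds that of the coding transcript. The merged length was 6.93 times the longest coding transcript for KRTCAP2 and 5.96 times for SSR2, against 1.28 times for OST4 and 1.20 times for MAGT1. Scaled to the longest coding transcript, SSR2 rose from place 14 to place 1 of 37 in the siNC-labelled library, KRTCAP2 from place 25 to place 7, and OST4 went from place 1 to place 3. The per-transcript level of SSR2 was then 275, that of RPN1 260 and that of OST4 249. In the siVCP-labelled library SSR2 rose from place 14 to place 3 and KRTCAP2 from place 24 to place 7, and OST4 held place 1 by either length. SEC62, SSR1, SEC63, SRP19, SRP54 and MAGT1 held places 30 to 35 in the siNC-labelled library by either length. In the siVCP-labelled library MAGT1 was at place 26 by FPKM and at place 27 by the longest coding transcript. Pair shares depended on length as well. Per longest coding transcript SEC11A was at 94.0 in the siVCP-labelled library and 99.9 in the siNC-labelled library, and SEC11C at 58.7 and 65.6. STT3A was then at 64.6 and 63.0, and STT3B at 29.6 and 35.8. Folds between the libraries are the same by either length.

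Over the 35 measured members, Spearman's rho between log2 ratio and transcript length was -0.44, and with GC content it was 0.52. Over 9670 measured genes the values were -0.26 and 0.30. The points share both libraries, and length and GC content go together (rho -0.45 in the members), so these are descriptions. Measured genes were cut by transcript length into 5 classes of equal number. The 4 members in the longest class were SSR1, SEC62, SEC63 and TRAM2, and their median log2 ratio was -0.39, against -0.16 for all genes of that class. On the log2 scale SEC63 differed from the median of its class by -0.32, SPCS3 by -0.37, SRP72 by -0.36 and SSR1 by -0.29. SRP14, at 1077 bases, differed from its class by -0.41. MAGT1, at 4047 bases and 40.8% GC, was 1.38 above its own, and OST4, at 561 bases, was 0.61 above. Members with a log2 ratio under 0 were found at every length, 6 of 12 in the shortest class and 3 of 4 in the longest, against 773 and 1352 of all 1934 genes in each of those classes. The part of length and GC content in the differences was not tested.

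**Figure D3:**
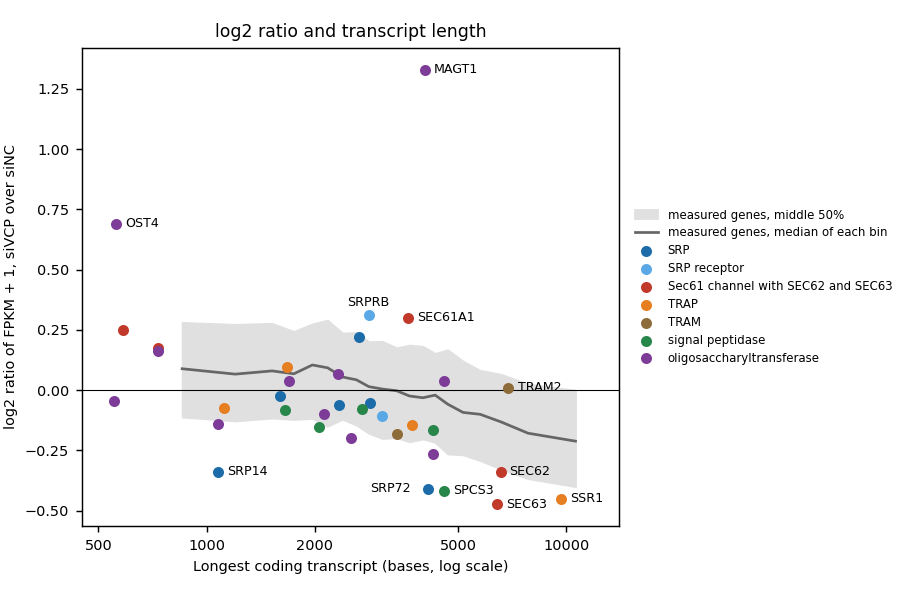
log2 ratio of FPKM + 1 of the 35 measured members against the length of the longest coding transcript (bases, log scale), coloured by complex, with the median (line) and interquartile range (band) of all measured genes in 20 bins of length. SSR1, SEC62 and SEC63 lie low among long transcripts, and MAGT1 lies at 1.33 far above genes of its length.

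The steps before and after glycan transfer were read from related lists. The glycan is first built on the lipid dolichol by 26 listed genes, of which 22 were measured. Their median log2 ratio was 0.12 (0.20 by CPM from the counts), and 16 of 22 lay above 0, against 47.2% of all measured genes. On the log2 ratio scale 2 were at least 1.5-fold higher, against the 4.53% of all measured genes, and 1 was lower, against 5.87%. The higher genes were DOLK and DHDDS, and the lower gene was ALG10, at a low FPKM. DOLK, which phosphorylates dolichol, was at an FPKM of 9.21 in the siVCP-labelled library and 4.23 in the siNC-labelled library, 2.18-fold higher [1.83 to 2.60]. DHDDS, a subunit of the enzyme that makes the polyprenol chain, was at 6.005 and 2.75, 2.18-fold higher [1.91 to 2.49]. NUS1, which encodes the partner of DHDDS in that enzyme, was at 14.6 and 15.3, a log2 ratio of -0.06. ALG10, which adds the last glucose, was at 0.878 and 1.88, a log2 ratio of -0.62, and DPM3, which anchors the mannose donor enzyme, was at 43.1 and 56.2, a log2 ratio of -0.38.

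After transfer the glycan is trimmed and read by lectin chaperones, and 13 of 14 listed genes were measured, with a median log2 ratio of -0.04 that turned to 0.01 by CPM and 0.03 with length centring. By 1.5-fold, 0 were higher, against 4.53% of all measured genes, and 1 was lower (7.69%, against 5.87%). EDEM3, which trims mannose from glycoproteins bound for degradation, was at 8.98 and 18.2, 2.03-fold lower [1.90 to 2.16]. PRKCSH, the beta subunit of glucosidase II, had a log2 ratio of -0.26. The lectin chaperone genes CALR (376 and 313) and CANX (75.2 and 71.9) had 0.26 and 0.06.

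Other routes into the membrane bypass the SRP or assist the channel. Of the 17 listed genes of tail-anchored insertion and of the ER membrane complex (EMC), all were measured, 14 (82.4%, against 47.2% of all measured genes) lay above 0 and the median log2 ratio was 0.32, or 0.21 with a pseudocount of 5. Here 2 were at least 1.5-fold higher (11.8%, against 4.53%) and 0 were lower (against 5.87%). EMC6 was at 34.6 and 21.6, 1.60-fold higher [1.40 to 1.83], and EMC7 at 21.9 and 14.3, 1.54-fold higher [1.36 to 1.74]. CAMLG, a receptor of the tail-anchored route, had a log2 ratio of -0.39 and EMC2 of -0.35. The 9 genes listed as partners of the channel, most of them for multipass proteins, had a median log2 ratio of 0.03. TMEM208 was 1.72-fold higher [1.56 to 1.89], and the log2 ratio was 0.40 for WDR83OS, -0.13 for NOMO3 and -0.09 for NCLN. TMEM208 was the 1 gene of that list at least 1.5-fold higher (11.1%, against 4.53%), and 0 were lower (against 5.87%). NOMO3 has near-identical copies, NOMO1 and NOMO2, so its own value is uncertain. The 7 ribosome receptors and nascent chain factors had a median of 0.04, which turned to -0.05 without genes under an FPKM of 5, and 0 were past 1.5-fold in either direction (against 4.53% higher and 5.87% lower). LRRC59 and CKAP4, ER membrane proteins that bind ribosomes or microtubules, had log2 ratios of 0.48 and 0.39. BTF3 and NACA, which form the nascent polypeptide-associated complex, had -0.33 and -0.22. None of these lists was tested against the set of 37.

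**Figure D4:**
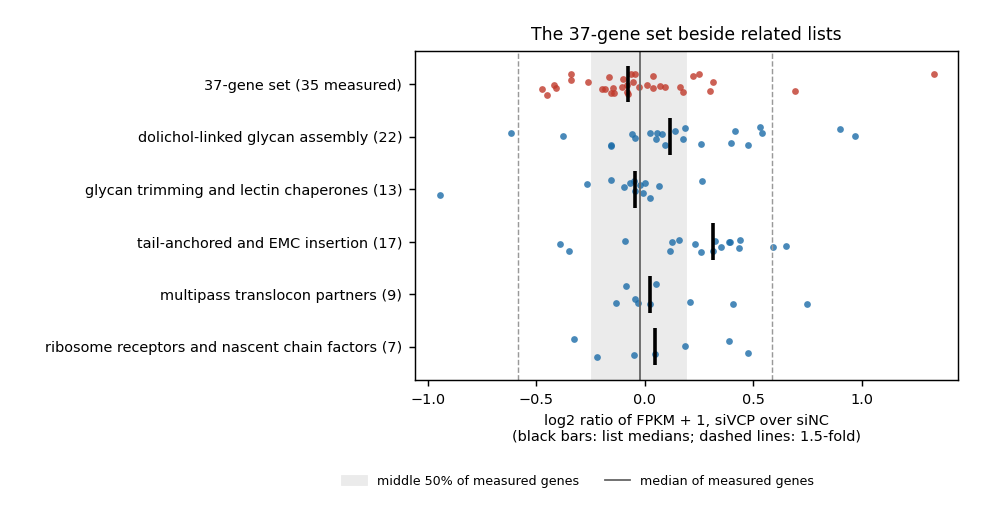
log2 ratio of FPKM + 1, the siVCP-labelled library over the siNC-labelled library, for the measured genes of the set and of 5 related lists, with list medians as black bars and the interquartile range of all measured genes shaded. The set centres at -0.08 with MAGT1 at 1.33 to the right, and the list of tail-anchored and EMC insertion centres at 0.32.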

How the data were processed

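The labels' protocols describe poly(A) selection and paired-end sequencing of ARP1 RNA, with 1 library per group. The FPKM values and the estimated counts per gene were deposited by the authors, with StringTie 1.3.0 and HISAT2 2.0 listed, in no stated role, by the submitters' processing notes. Genome build, annotation and strandedness are not given in the sources used here. GENCODE 29 holds 58394 of the gene identifiers, 90.6% with the same start or end, and coordinates are therefore read as GRCh38.

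FPKM at a count of 0 was set to 0, and rows sharing a symbol were summed. Low counts were commonest at multiples of 4, from which 4 counts per fragment were inferred. Intervals are exact conditional binomial 95% intervals of the ratio of counts divided by 4, scaled to the FPKM fold. Molecular identifiers were not used, so reads may be copies of 1 molecule. A gene counts as measured with an FPKM of 1 or more in either library, and the pseudocount was 1. Transcript length and GC content come from the longest GENCODE 29 transcript that is protein-coding and in its basic set, found for 83.0% of measured genes and all 35 measured members.

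The members, lists and settings were chosen with earlier results of these data known. Text names all members, VCP, marker checks, and the 2 highest and 2 lowest measured genes of each related list. RUVBL1, NUDT5, AGBL5, AL139095, GLT8D1, REEP5, IDH3G, SPCS2P4, NUS1, GET3, RN7SL1, RN7SL2, RN7SL3, NOMO1 and NOMO2 were added after values were seen. Alternatives covered the pseudocount, the filter on low values, scaling, symbol handling, fold thresholds, pseudogene reads and length centring. From the marker lists, 1 B cell gene is not reported here. The steps were tested on simulated data. Computations used scipy 1.17.1, pandas 2.3.3 and numpy 2.4.6 under Python 3.11.15, with figures from matplotlib 3.10.9.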

Additional observations from a re-analysis of the deposited data

How the results depend on the processing

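No paired analysis was possible because there was a single library of each kind, which also left none to leave out. The settings with pseudogene reads added and with centring on genes of like transcript length were chosen after seeing the data. MAGT1 and OST4 were at least 1.5-fold higher under every setting run at that threshold. At 2-fold the count was 1, MAGT1. At a log2 ratio of -0.32 or under, 6 of the 35 members were lower (SRP14, SRP72, SEC62, SEC63, SSR1 and SPCS3), while 18.3% of all measured genes were. At 0.32 or over, 2 of the 35 were higher (MAGT1 and OST4), while 13.9% of all measured genes were. The VCP log2 ratio of 0.46 was 0.53 by CPM, computed from the counts, and moved by less than counting error under the other settings. The set's median stayed below 0 throughout, from -0.12 with length centring to -0.02 with CPM. Of 348 recomputed member values 319 stayed within their counting interval, 29 moved and 0 whose interval excluded 1 changed sign. The filters and the symbol handling cannot change a member's own log2 ratio, nor can pseudogene reads where a member has none. Such values are among the 319, so that number overstates how much was put to the test. MAGT1 ranged from 1.0 with a pseudocount of 5 to 1.49 with CPM. With CPM 15 members lay above 0 instead of 13. SRPRA went from -0.11 to -0.05, DDOST from -0.10 to -0.04, SEC11A from -0.08 to -0.02 and SSR2 from -0.08 to -0.01. That these 4 were lower beyond counting error thus depends on the scaling. Of 120 group medians 4 moved. Some medians near 0 changed sign: the ribosome receptor list turned to -0.05 where genes under an FPKM of 5 were left out, OST to -0.0047 without a filter and -0.04 with length centring, and the trimming list to 0.01 by CPM and 0.03 with length centring. Depth limits the low members, and the fold interval was 0.674 to 1.301 for SEC61A2 and 0.0831 to 1.13 for TUSC3.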

Other observations

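The RNA of the SRP, 7SL, has no poly(A) tail and should largely escape the selection used here. Its rows were still read. RN7SL1 was at an FPKM of 38.7 in the siVCP-labelled library and 36.9 in the siNC-labelled library, and RN7SL2 at 23.3 and 27.5. RN7SL3 was at 2.14 and 3.57, from counts of 53 and 93. They are near-identical copies, so their split is uncertain.

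Within the list of other insertion routes, both arms lay above 0. The 10 EMC subunits had a median log2 ratio of 0.35, with 8 above 0, and the 7 factors of the tail-anchored route had 0.23, with 6 above 0, against 47.2% of all measured genes. Among the latter, GET3, the ATPase that carries tail-anchored proteins, was at an FPKM of 99.95 in the siVCP-labelled library and 79.6 in the siNC-labelled library. This arm split was made after the values were seen.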
